A study of Mus musculus with 6 samples.

Results

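Amino acid transporters are membrane carriers that move amino acids across the cell surface and across the lysosomal membrane. The genes described here are named for families of these transporters. They were taken by gene family as every protein-coding gene of GENCODE M21 with a symbol of the solute carrier families Slc1, Slc7, Slc36, Slc38 and Slc43, together with Slc3a1 and Slc3a2, which gave 43 of the 21921 protein-coding genes and of the 54752 genes in the tables. The cells were 3T3-L1, an established line of mouse fibroblasts that turns into fat cells when induced, and 6 RNA libraries were made, 3 labelled preadipocyte and 3 labelled adipocyte. All 6 carry the strain label C57BL/6J, the tissue label embryo, no treatment, and the same medium entry, which names BCS medium, DMI and FBS without saying which group received what. The source name reads adipocyte for all 6, so the groups rest on the sample titles and the cell type label. The day of harvest is not given in the sources used here. 3T3-L1 is a single cell line, and nothing in the labels says that the libraries came from separate cultures, so p-values measure the spread between these libraries only, which may be technical.

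Depth per library was between 22496486 and 26314076 expected counts. Of 8 fat cell markers all 8 were higher in adipocytes, and of 8 preadipocyte markers 7 were lower, Zfp423 being the exception. The sum in any library was at most 6.69 CPM (counts scaled to a common library size) for leukocyte markers. It was at most 0.909 CPM for endothelial and 0.346 CPM for epithelial markers. The sum over 5 skeletal muscle markers rose from between 1.34 and 2.0 to between 61.6 and 77.5 CPM, nearly all of it the filament gene Des, with the muscle regulators Myod1, Myog and Myf5 at 0 counts in every library. The part of these cells or of Des in the members' values was not tested. Because these are bulk libraries, a change in the number of cells of one kind and a change in RNA per cell cannot be told apart.

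As background, amino acid carriers differ in what they move and in what drives them. Heteromeric carriers pair a heavy chain, which takes the complex to the cell surface, with a light chain, which does the transport and mostly exchanges one amino acid for another. The Slc38 system A carriers and the Slc1 glutamate carriers instead use the sodium gradient to concentrate their substrates. The carriers encoded by Slc36a1 and Slc36a2 use protons. In fat cells, amino acids taken up by these routes supply protein synthesis, nitrogen for glutamine, carbon for lipid and cystine for glutathione.

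Of the 43 genes, 26 had enough counts to be tested, 13 were higher in adipocytes, 10 were lower and 3 did not pass the test (edgeR's quasi-likelihood test, Benjamini-Hochberg adjusted p under 0.05 over 14726 genes). The rule also takes in Slc7a6os, which lies beside Slc7a6 on the opposite strand and is not a carrier. Without it, 25 were tested and the counts of higher and lower genes were the same. Slc43a3, called at least 2-fold higher, is kept in all counts, although it carries purine nucleobases and not amino acids. Calls were common in this comparison: 73.5% of all tested genes passed, 35.7% higher and 37.9% lower. The members were called at 88.5%, with 8 at least 2-fold higher (19.3% of all tested genes) and 4 at least 2-fold lower (21.8% of all tested genes). Their median log2 fold change was 0.15, against -0.06 over all tested genes. CPM values of the groups did not overlap for 23 of the 26, where 76.5% of all tested genes did not overlap. The direction balance depends on scaling. Higher genes made up 56.5% of the calls among members with TMM factors, 38.1% (8 higher and 13 lower, background 26.6% and 50.8%) with total counts alone and 45.0% (9 higher and 11 lower, background 18.1% and 46.5%) with limma on log2(TPM + 1) (limma on TPM below), while over all genes the shares were 48.5%, 34.3% and 28.0%. Relative to TMM the median of all genes shifted by -0.33 (log2) with total counts, by -0.48 with limma on TPM and by -0.13 with upper-quartile factors.

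**Figure D1:**
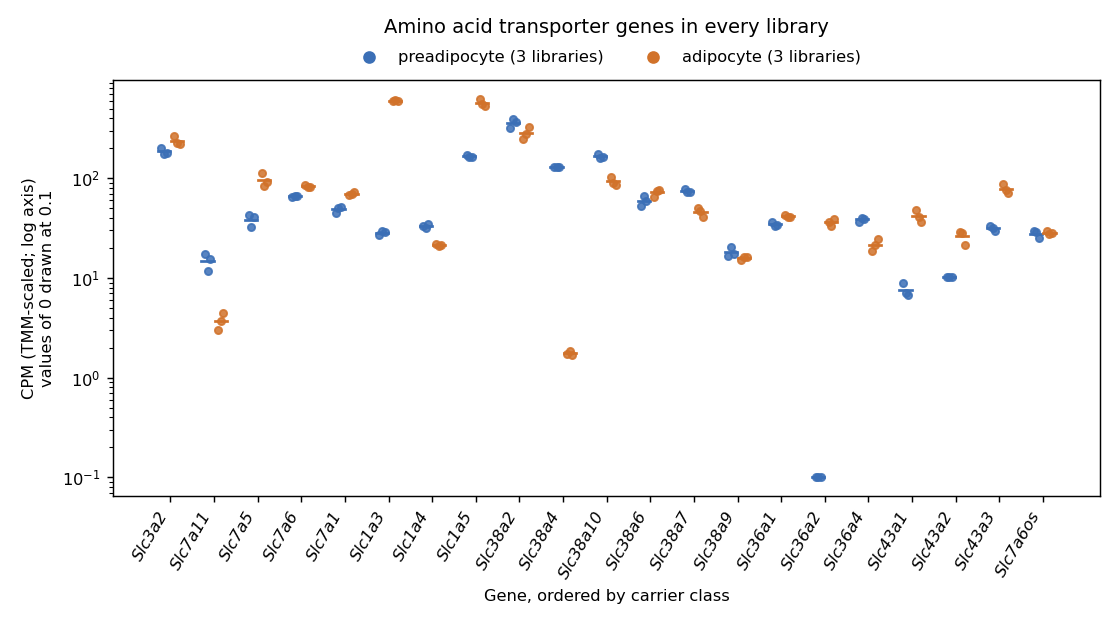
CPM on a log axis of the 21 members with a mean of at least 5 CPM in at least 1 group. Each point is 1 library and each bar a mean of 3 libraries, with preadipocytes in blue and adipocytes in orange. Slc1a3, Slc36a2 and Slc43a1 lie far above their preadipocyte points, and Slc38a4 and Slc7a11 far below. Slc36a2 had 0 counts in preadipocytes and is drawn at 0.1.

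**Figure D2:**
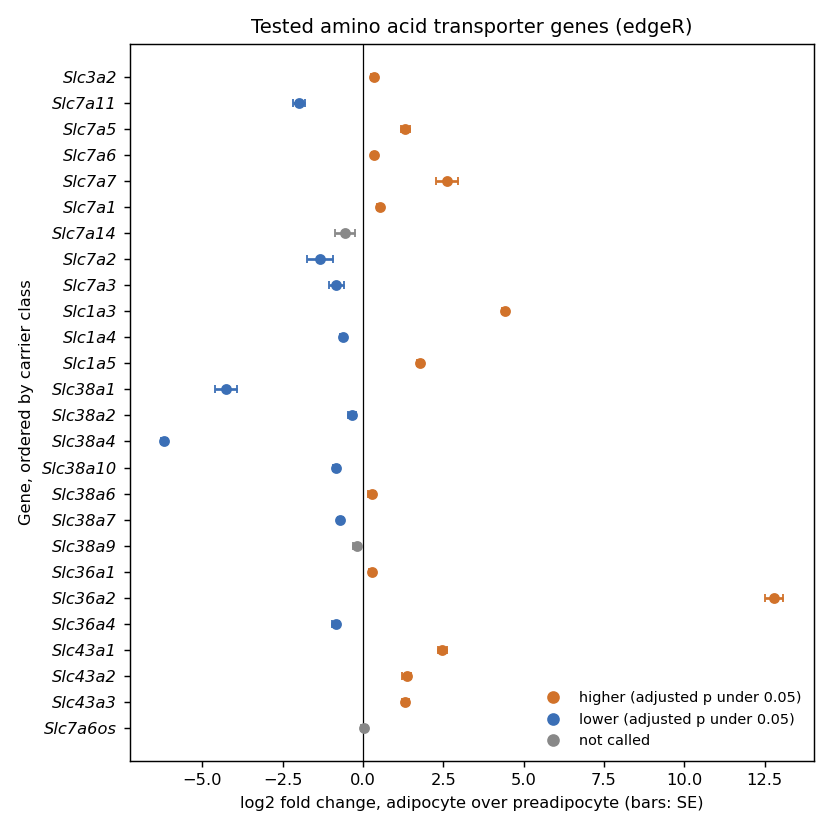
Fitted log2 fold change, adipocyte over preadipocyte, of the 26 tested members, with bars of 1 SE. Orange genes were higher, blue genes lower and grey genes not past the threshold. The 3 Slc43 genes are all to the right of 0 and the 3 system A genes Slc38a1, Slc38a2 and Slc38a4 all to the left. The position of Slc36a2 depends on the prior count of the tool, since it had no preadipocyte count.

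Levels were compared between genes on the TPM scale, which accounts for transcript length. The summed TPM of all members was 975 ± 10.5 in preadipocytes and 1125 ± 44.6 in adipocytes (SD, n = 3), with the 3 adipocyte values (1087 to 1174) all above the preadipocyte ones (963 to 983). What made up that sum was different. In preadipocytes the 3 most abundant members were the heavy chain gene Slc3a2 at 216 ± 8.32 TPM, the system A gene Slc38a2 at 143 ± 19.7 TPM and the glutamine carrier gene Slc1a5 at 132 ± 1.84 TPM (SD, n = 3). The order of the last pair is not larger than the spread of Slc38a2. In adipocytes they were Slc1a5 at 309 ± 28.3 TPM, the glutamate carrier gene Slc1a3 at 200.2 ± 6.10 TPM and Slc3a2 at 192 ± 13.2 TPM (SD, n = 3), of which Slc1a3 and Slc3a2 overlapped between libraries. Slc1a5 and Slc1a3 together took 15.2%, 15.1% and 14.9% of the members' TPM in preadipocyte libraries 1 to 3 and 45.5%, 45.5% and 44.7% in adipocyte libraries 1 to 3. The Slc38 genes together went the other way, from 40.4%, 43.1% and 42.7% to 14.2%, 16.1% and 16.8%.

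**Figure D3:**
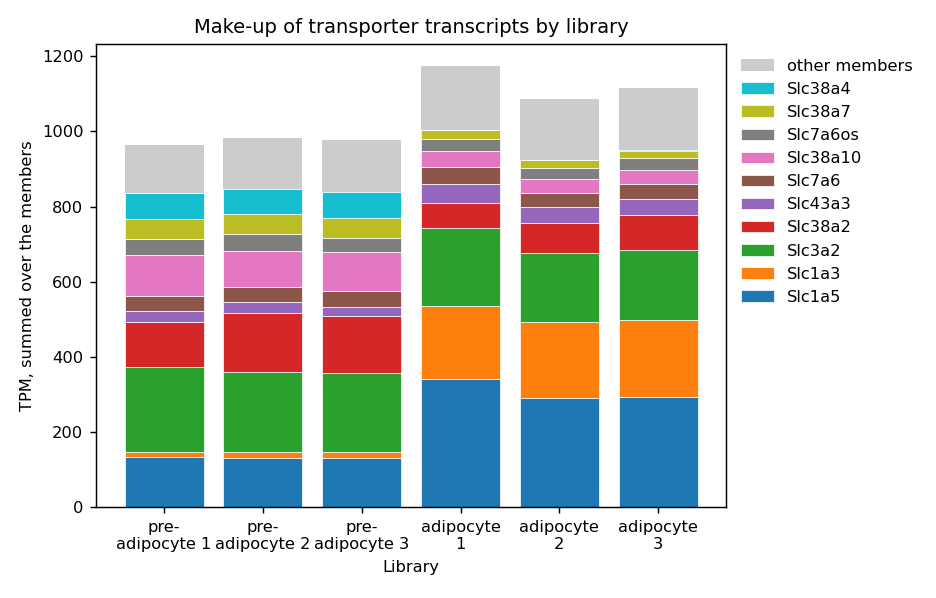
TPM summed over the 43 members in each library, split by gene for the 10 genes that took at least 4% of the sum in either group, with the other members in grey. The Slc1a5 and Slc1a3 segments together are 45.2% ± 0.478 of the sum in adipocytes against 15% ± 0.142 in preadipocytes (SD, n = 3), and the Slc38a4 segment is visible only in preadipocytes, since it is 0.0687% of the sum in adipocytes.

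Slc3a2 (ENSMUSG00000010095.13, chromosome 19, 8706882 to 8723369), on GRCm38 like all positions here, encodes the heavy chain CD98 that carries most of the light chains below to the cell surface. It measured 204, 176 and 180.2 CPM in preadipocyte libraries 1 to 3 and 265, 226 and 222 CPM in adipocyte libraries 1 to 3. The groups did not overlap, and the gene rose by 0.35 on the log2 scale (edgeR, SE 0.098, adjusted p = 0.0105). That small rise depends on scaling: the log2 fold change was 0.02 with total counts, 0.21 with upper-quartile factors and -0.17 with limma on TPM, none of them past the threshold. Slc3a1, the kidney heavy chain of cystine transport, had 14 preadipocyte and 9 adipocyte counts in all and was not tested.

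Of 9 light chain genes, 4 were tested, 3 rose and 1 fell. Slc7a5 (ENSMUSG00000040010.10, chromosome 8, 121881150 to 121907694) encodes LAT1, which exchanges glutamine for leucine and other large neutral amino acids. It went from 42.6, 32.7 and 40.6 to 113, 83.9 and 91.9 CPM, with every adipocyte library above every preadipocyte one, a rise of 2.49-fold (log2 1.32, SE 0.14, edgeR adjusted p = 2.62e-05). Slc7a6 encodes a carrier that exchanges cationic for neutral amino acids and measured 65.7, 66.3 and 65.9 against 85.1, 82.8 and 82.4 CPM. Its groups did not overlap and it rose by 0.34 (edgeR, SE 0.065, adjusted p = 0.00131), but the log2 fold change was 0.01 with total counts and -0.01 with limma on TPM. On the TPM scale Slc7a6 was the most abundant light chain gene in preadipocytes at 40.9 ± 1.51, above Slc7a5 at 21.1 ± 2.46 (SD, n = 3). In adipocytes Slc7a6 at 40.8 ± 4.17 TPM and Slc7a5 at 36.7 ± 4.88 TPM (SD, n = 3) overlapped in range, with Slc7a6 the higher in each of the 3 libraries. The light chain genes summed to 29.1%, 29.9% and 32.4% of the Slc3a2 level in TPM in preadipocyte libraries 1 to 3 and to 43.4%, 39.4% and 41.7% in adipocyte libraries 1 to 3.

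Slc7a7, which has the same exchange activity as Slc7a6, was scarce and rose from 25 to 134 counts over 3 libraries, or from 0.391, 0.395 and 0.182 to 2.46, 2.01 and 1.47 CPM (log2 2.61, SE 0.34, edgeR adjusted p = 0.000112). Its exons share 7.0% of their bases with Oxa1l on the opposite strand, and Oxa1l rose too, from 44.8 ± 2.85 to 108 ± 14.5 CPM (SD, n = 3). The strand setting of the counting is not given, and the part of Oxa1l reads in the Slc7a7 counts was not tested. Slc7a8, which encodes the neutral exchanger LAT2, had 3 preadipocyte and 26 adipocyte counts, a ratio of 10.0 (95% Poisson interval 3.44 to 48.7, counting error only), too few to be tested. Slc7a10, which encodes Asc-1, a small neutral amino acid exchanger known as a surface marker of white fat cells, had 2 counts in preadipocytes and 1 in adipocytes.

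Slc7a11 (ENSMUSG00000027737.10, chromosome 3, 49892526 to 50443614) encodes xCT, which imports cystine in exchange for glutamate and so feeds glutathione synthesis. It measured 17.3, 11.7 and 15.6 CPM in preadipocytes and 2.98, 3.74 and 4.50 CPM in adipocytes. All adipocyte values were below all preadipocyte values, and the gene fell by 1.99 on the log2 scale, 3.97-fold (edgeR, SE 0.20, adjusted p = 1.82e-05). The drop held in every alternative run, between -2.31 and -1.29. Slc7a11 is a textbook target of ATF4, the transcription factor of the amino acid response, through C/EBP-ATF response elements before its start site. These elements are shown because 10 of 11 listed genes of that response moved in the opposite direction, Eif2ak4 being the exception. The contrast is between Slc7a11 and that list, and not between the members as a whole and that list. Which other members are targets of ATF4 was not looked up, so the contrast says nothing of such members. The part of these elements in the fall was not tested. The windows below come from RefSeq promoters (GRCm38.p6), are written on the strand of the gene, and have matches to the element core TGATGNAA, on either strand, in capitals.

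Slc7a11 (chr3:50443629-50443703, minus strand, 90 to 16 bases before the start): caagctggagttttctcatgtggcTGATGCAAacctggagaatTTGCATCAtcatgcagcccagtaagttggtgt
Slc7a7 (chr14:54418054-54418109, minus strand, 165 to 110 bases before 1 of its 5 listed starts): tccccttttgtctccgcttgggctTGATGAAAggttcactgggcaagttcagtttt
Atf3 (chr1:191183412-191183467, minus strand, 134 to 79 bases before the start): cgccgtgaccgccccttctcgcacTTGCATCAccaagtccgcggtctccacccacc
Chac1 (chr2:119351025-119351080, plus strand, 217 to 162 bases before the start): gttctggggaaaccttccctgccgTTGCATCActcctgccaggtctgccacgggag

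The Slc7a11 window holds 2 matches, the first on the gene's strand and the second on the other strand. The windows shown are a choice and not all matches. Slc7a7 also held TGATGCAA, 243 bases before another of its starts, in a window that is not shown. Over 250 bases before to 50 after each start, 32 of the 43 members had a RefSeq promoter and 3 of them (9.38%) held the core, Slc7a11, Slc7a7 and Slc1a4, against 1219 of 27025 genes (4.51%). Among the 11 amino acid response genes listed for comparison, a list of known genes of that response, 5 (45.5%) held it. A match is a run of letters and says nothing of binding. Of the 3 members with a match, Slc7a11 and Slc1a4 fell and Slc7a7 rose, whereas the matched response genes Atf3 and Chac1 rose by 3.61 and 2.86 on the log2 scale. Members with no entry in the promoter table were Slc1a5, Slc36a2, Slc38a1, Slc38a3, Slc43a3, Slc7a2, Slc7a3, Slc7a4, Slc7a5, Slc7a12 and Slc7a13.

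Cationic carriers bring in arginine and lysine. Slc7a1, the widely expressed member, measured 45.2, 50.4 and 52.1 CPM in preadipocytes and 68.0, 70.3 and 73.2 CPM in adipocytes, with no overlap, and rose by 0.52 on the log2 scale (edgeR, SE 0.081, adjusted p = 0.000369). The call was lost with total counts (0.19, adjusted p = 0.0699) and with limma on TPM (-0.0023, adjusted p = 0.985). On the TPM scale its level was 13.0 ± 1.38 and 12.9 ± 0.821 (SD, n = 3). The other cationic carriers were rare. Slc7a2 fell from 56 to 19 counts (log2 -1.33, SE 0.40, edgeR adjusted p = 0.0145) and Slc7a3 from 101 to 49 (log2 -0.83, SE 0.24, edgeR adjusted p = 0.0133). The Slc7a2 call was lost without preadipocyte library 2 (-1.18), adipocyte library 2 (-1.29) or adipocyte library 3 (-0.93). The Slc7a3 call was lost without preadipocyte library 1 (-0.65), without adipocyte library 2 (-0.77) and with DESeq2 (-0.78). Slc7a14, a related gene of the lysosome, did not pass at -0.56 (edgeR adjusted p = 0.12), but passed downward with total counts (-0.88). Slc7a15 had 2 preadipocyte and 23 adipocyte counts, a ratio of 13.3 (95% Poisson interval 3.69 to 110.1), and was not tested.

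Slc1a3 (ENSMUSG00000005360.14, chromosome 15, 8634124 to 8710764) encodes GLAST, a sodium-driven carrier of glutamate and aspartate best known from astrocytes. It measured 26.8, 29.8 and 29.1 CPM in preadipocyte libraries 1 to 3 and 602, 616 and 599 CPM in adipocyte libraries 1 to 3. The 3 adipocyte values lay close together and far above the preadipocyte values, a rise of 21.2-fold (log2 4.41, SE 0.085, edgeR adjusted p = 1.92e-09). It kept its call in every alternative run, at 3.69 to 4.47. Among the 5 neuron and glia markers, which summed to 0.726 to 0.869 CPM in preadipocytes and 4.48 to 5.80 CPM in adipocytes, Sox10 and Rbfox3 were at 0 in every library. Most of the adipocyte sum was the synaptic vesicle fusion gene Snap25, at 0 counts in each preadipocyte library and 3.55, 2.99 and 4.8 CPM in adipocyte libraries 1 to 3, at least 99.3-fold higher by a floor of 3 counts over the preadipocyte group (edgeR adjusted p = 8.97e-06). The astrocyte filament gene Gfap was at 0.313, 0.395 and 0.254 CPM in preadipocytes and 0.908, 1.12 and 0.692 CPM in adipocytes and rose by 1.49 on the log2 scale (edgeR, SE 0.32, adjusted p = 0.00241). The part of cells with these markers in the Slc1a3 level was not tested. The other glutamate carrier genes of the family, Slc1a1, Slc1a2, Slc1a6 and Slc1a7, had at most 9 counts each over all 6 libraries.

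Slc1a5 (ENSMUSG00000001918.17, chromosome 7, 16781340 to 16798274) encodes ASCT2, the main sodium-dependent route for glutamine in many dividing cells. It went from 173, 166 and 164 to 627, 555 and 539 CPM, without overlap, and rose 3.42-fold (log2 1.78, SE 0.085, edgeR adjusted p = 1.52e-07). Slc1a4, its close relative ASCT1, which carries alanine, serine and cysteine, went the other way, from 33.4, 31.7 and 34.7 to 21.9, 21 and 21.6 CPM. It fell by 0.63 on the log2 scale (edgeR, SE 0.077, adjusted p = 7.37e-05) with no overlap between groups. Both calls held in all 13 alternatives.

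The system A genes Slc38a1, Slc38a2 and Slc38a4 encode sodium-driven carriers of small neutral amino acids, and all 3 fell. Slc38a4 (ENSMUSG00000022464.14, chromosome 15, 96994820 to 97055956), a carrier gene best known from liver and placenta, had 130.2, 131 and 129 CPM in preadipocytes and 1.73, 1.87 and 1.69 CPM in adipocytes. The values within each group were nearly equal, and the gene fell 73.7-fold (log2 -6.20, edgeR SE 0.094, adjusted p = 1.15e-09), the largest fall among the 26 tested members. Slc38a1 fell from 206 to 9 counts over 3 libraries, or from 2.62, 2.37 and 2.87 to 0.173, 0.187 and 0.0433 CPM (log2 -4.25, SE 0.34, edgeR adjusted p = 4.47e-06). Both calls held in every alternative run, although limma on TPM, where the added 1 damps low genes, gave -0.88 for Slc38a1. Of the Slc38a1 31-mers, 5.46% also occur in transcripts of 4632432E15Rik.

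Slc38a2, the system A gene induced when amino acids run short, stayed abundant in both states, at 319.5, 392 and 369.5 CPM in preadipocytes and 246, 280.1 and 326 CPM in adipocytes. The groups overlapped, since adipocyte library 3 lay above preadipocyte library 1. It fell by 0.34 on the log2 scale (edgeR, SE 0.12, adjusted p = 0.0292), a call lost without preadipocyte library 2 (-0.28) or 3 (-0.32), without adipocyte library 1 (-0.24) or 2 (-0.30) and without the low-count filter (-0.28). Slc38a2 was the most abundant system A gene in adipocytes, at 80.2 ± 13.2 TPM (SD, n = 3) against 0.777 ± 0.194 TPM for Slc38a4.

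The 3 system A genes lie side by side on chromosome 15, between 96571418 and 97055956, with gaps of 44.5 kb between Slc38a1 and Slc38a2 and 295.1 kb between Slc38a2 and Slc38a4. The sequences before the start sites of Slc38a2 and Slc38a4 are shown as those of neighbours that differ there in base composition. Slc38a1 has no entry in the promoter table. Any link between base composition and the size of a fall was not tested. Over the 250 bases before the RefSeq start, Slc38a2 has 30 CG dinucleotides and 72.0% G or C, whereas the 3 listed starts of Slc38a4 have 3 to 5 CG dinucleotides, against a median of 6 over 32851 promoters. The last 100 bases before the start follow, with CG dinucleotides in capitals.

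Slc38a2 (chr15:96699729-96699828, minus strand): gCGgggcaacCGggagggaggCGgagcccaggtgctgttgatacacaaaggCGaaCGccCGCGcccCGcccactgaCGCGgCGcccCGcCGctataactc
Slc38a4 (chr15:97055957-97056056, minus strand, the outermost of its starts): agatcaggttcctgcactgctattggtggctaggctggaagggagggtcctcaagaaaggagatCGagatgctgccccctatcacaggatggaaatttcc

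Other Slc38 genes encode carriers found mainly on lysosomes and other inner membranes, or of less settled function. Slc38a10 fell from 177, 159 and 162 to 103, 89.9 and 86.7 CPM (log2 -0.84, SE 0.088, edgeR adjusted p = 2.72e-05). Slc38a7, which exports glutamine and asparagine from lysosomes, fell from 77.8, 73.6 and 73.3 to 49.9, 47.2 and 40.8 CPM (log2 -0.70, SE 0.091, edgeR adjusted p = 0.000107). Neither overlapped between groups, and both calls held in all 13 alternatives. Slc38a9, the lysosomal arginine sensor that signals to mTORC1, measured 16.7, 20.3 and 17.5 and 15, 16.2 and 16.3 CPM and did not pass (-0.20, edgeR adjusted p = 0.116). With the replicate number as a block, which called 13 members higher and 11 lower (background 39.1% and 42.2%), it passed downward at -0.19 (adjusted p = 0.0414), and it also did with upper-quartile factors (-0.33) and total counts (-0.52).

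Slc38a6 measured 52.8, 67.2 and 58.7 against 65.0, 74.4 and 77.3 CPM, with overlapping groups, and passed at 0.28 (edgeR adjusted p = 0.0433). The call was lost without preadipocyte library 1 (0.20) or 3 (0.27) and without adipocyte library 2 (0.29) or 3 (0.28), and the sign turned with total counts (-0.05). Of its transcript 31-mers, 31.2% also occur in transcripts of Noct, which rose from 64.0 ± 8.65 to 147 ± 17.8 CPM (SD, n = 3), so the split of reads between them is uncertain. The system N genes Slc38a3 and Slc38a5 and the genes Slc38a8 and Slc38a11 had at most 4 counts each over the 6 libraries.

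The Slc36 carriers encoded by Slc36a1 and Slc36a2 move glycine, alanine and proline together with protons. Slc36a2 (ENSMUSG00000020264.5, chromosome 11, 55158470 to 55185077), which encodes PAT2, a surface protein known from brown and beige fat cells, had 0 counts in each preadipocyte library and 36.7, 33.1 and 39.0 CPM in adipocyte libraries 1 to 3. It was at least 950.0-fold higher in adipocytes, taking a floor of 3 counts over the preadipocyte group (edgeR adjusted p = 5.20e-08). Its neighbour Slc36a1, which encodes PAT1 of the lysosome and the cell surface, measured 36.6, 33.0 and 34.3 and 43.4, 40.8 and 41.1 CPM and rose by 0.27 on the log2 scale (edgeR, SE 0.077, adjusted p = 0.0112). This call was lost without preadipocyte library 2 (0.24) or 3 (0.26) and with upper-quartile factors (0.14), and the sign turned with total counts (-0.06) and limma on TPM (-0.17). The neighbours share 4.03% of the Slc36a2 31-mers, so a small part of their reads is divided by the model, yet Slc36a2 stayed at 0 in preadipocytes, where Slc36a1 had 2714 counts. Slc36a3, the third gene of the cluster, had 0 and 5 counts. Slc36a4, an amino acid carrier gene outside the cluster, on chromosome 9, fell from 36.8, 40.3 and 39.5 to 18.8, 21.5 and 24.4 CPM (log2 -0.85, SE 0.11, edgeR adjusted p = 8.66e-05), without overlap and in all alternatives.

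The 3 Slc43 genes all rose, each without overlap and in all 13 alternatives. Slc43a1 (ENSMUSG00000027075.16, chromosome 2, 84838850 to 84863594) encodes LAT3, a uniporter of leucine and other large neutral amino acids. It rose from 8.92, 7.03 and 6.79 to 48.3, 40.8 and 36.6 CPM, 5.53-fold (log2 2.47, SE 0.14, edgeR adjusted p = 5.47e-07). Slc43a2 encodes LAT4, a uniporter of similar substrates, and rose from 10.3, 10.2 and 10.2 to 28.8, 28.4 and 21.6 CPM (log2 1.36, SE 0.13, edgeR adjusted p = 1.12e-05). Its exons share 9.18% of their bases with Gm45606 on the opposite strand, which had 30 and 23 counts. Slc43a3 lies 73.0 kb from Slc43a1 on chromosome 2 and carries purine nucleobases and not amino acids, despite its family. It rose from 33.4, 31.4 and 29.4 to 87.8, 76.6 and 70.8 CPM (log2 1.32, SE 0.10, edgeR adjusted p = 3.12e-06).

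Slc7a6os measured 29.5, 28.8 and 25.4 and 29.7, 27.5 and 28.3 CPM, with overlapping groups, and did not pass (0.03, edgeR adjusted p = 0.756). It passed downward with total counts (-0.30) and limma on TPM (-0.45). It ends 2.0 kb from Slc7a6, with no shared exon base. Of the 17 members that were not tested, 5 had no count in any library (Slc1a6, Slc38a5, Slc38a11, Slc7a9 and Slc7a12), 9 had 1 to 9 counts over the 6 libraries (Slc1a1, Slc1a2, Slc1a7, Slc36a3, Slc38a3, Slc38a8, Slc7a4, Slc7a10 and Slc7a13) and 3 had more (Slc3a1, Slc7a8 and Slc7a15). A group total of 0 counts allows up to 0.0383 CPM in preadipocytes and 0.0443 CPM in adipocytes by a floor of 3 counts, for counting error only.

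Genes that handle the same amino acids were read from lists made for this comparison. Of 11 amino acid response genes, 10 rose and 1 fell (background 35.7% higher and 37.9% lower), with a median log2 fold change of 1.90. Atf4 itself measured 139, 135 and 134 and 292, 275 and 282 CPM (log2 1.06, SE 0.069). The pseudokinase gene Trib3 rose from 9.90, 7.19 and 9.15 to 209, 184 and 203 CPM (log2 4.51, edgeR adjusted p = 8.24e-09) and the stress gene Nupr1 from 19.1, 15.7 and 14.3 to 155, 129.8 and 129.7 CPM (log2 3.08, edgeR adjusted p = 7.33e-08). The exception was Eif2ak4, the kinase GCN2 that senses uncharged tRNA, which fell by 1.09 on the log2 scale (edgeR, SE 0.071, adjusted p = 1.17e-06). Asns, asparagine synthetase, rose to 267, 269 and 263 CPM from 56.5, 52.4 and 58.2. Of the members holding the element core, Slc7a11 and Slc1a4 fell and Slc7a7 rose in the same libraries.

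Of 13 enzyme genes of glutamine, glutamate, aspartate and proline, 8 rose and 3 fell (84.6% called, against 73.5% of all tested genes). Glutamine synthetase Glul, which makes glutamine from glutamate, was at 19.8, 20.1 and 20.5 CPM in preadipocytes and 1099, 1059 and 993 CPM in adipocytes (log2 5.70, SE 0.090, edgeR adjusted p = 1.23e-09). Its groups did not overlap. The largest rises were of the proline oxidase gene Prodh, from 0.705, 0.553 and 0.799 to 154, 123 and 113 CPM (log2 7.55), and of the alanine aminotransferase gene Gpt, from 2.51, 2.45 and 2.25 to 207, 184 and 164 CPM (log2 6.27). Among the 3 that fell were Got2 (log2 -0.76, edgeR adjusted p = 0.00142) and Pycr1 (log2 -0.66, edgeR adjusted p = 0.000538). Glul was named after its values were seen, because its substrate, glutamate, is what Slc1a3 carries.

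Of 7 tested genes of glutathione synthesis and turnover, 6 rose and 1 fell (background 35.7% higher and 37.9% lower), while the cystine carrier gene Slc7a11 fell. Of the 9 listed, Cbs (0 preadipocyte and 14 adipocyte counts) and Ggt1 (8 and 13 counts) were too rare to be tested. Both subunits of the first enzyme were higher, Gclc at 10.4, 10.7 and 10.3 and 27.5, 27.7 and 30.5 CPM (log2 1.45, SE 0.088) and Gclm at 24.6, 31.4 and 30.2 and 73.7, 78.6 and 82.2 CPM (log2 1.44, SE 0.11). Cth, which makes cysteine inside the cell, rose from 8.10, 6.83 and 8.02 to 37.0, 35.4 and 37.6 CPM (log2 2.26, edgeR adjusted p = 8.31e-08), and Chac1, which degrades glutathione, from 6.11, 4.98 and 4.76 to 44.0, 32.2 and 38.6 CPM. Ggt5 fell by 0.78 on the log2 scale (edgeR, SE 0.25, adjusted p = 0.0183), and no gene of the list was called lower without preadipocyte library 1, adipocyte library 2 or adipocyte library 3.

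Amino acid carriers of other families gave 8 tested genes of 17, of which 5 rose and 1 fell. That is 75.0% called, near the 73.5% of all tested genes. Slc16a10, a uniporter of aromatic amino acids, rose from 0.313, 0.316 and 0.290 to 14.7, 16.7 and 17.2 CPM (log2 5.70, edgeR adjusted p = 8.93e-09), and the lysosomal cysteine carrier gene Mfsd12 from 25.6, 21.2 and 22.9 to 416, 346 and 311 CPM (log2 3.95, edgeR adjusted p = 2.11e-08). Slc6a17, a neutral amino acid carrier of synaptic vesicles, fell from 186 to 16 counts. The number lower was 2 with upper-quartile factors, without the low-count filter, with the replicate block or without adipocyte library 1, 3 by total counts and 4 by limma on TPM.

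Of 25 tested genes of amino acid sensing before mTORC1, 10 rose and 4 fell, 14 of 25 or 56.0% against the background of 73.5%. The leucine-sensing family gene Sesn3 fell from 338, 434 and 411 to 105, 138 and 138 CPM (log2 -1.63, edgeR adjusted p = 5.60e-06), the Rag GTPase gene Rragc rose from 133, 134 and 135 to 255, 275 and 267 CPM (log2 0.99, edgeR adjusted p = 1.85e-06) and the GATOR1 gene Depdc5 rose by 0.90. These counts follow the scaling, with 7 higher and 10 lower by total counts and 3 higher and 16 lower by limma on TPM. Among 6 tested arginine enzymes, 2 rose and 2 fell, 66.7% called against the background of 73.5%. By total counts 4 were lower, and by limma on TPM 1 was higher and 4 were lower. The nitric oxide synthase gene Nos3 rose from 0.157, 0.277 and 0.363 to 20.3, 18.5 and 15.3 CPM, while Ddah2 and Ass1 fell, at log2 -3.0 and -2.94.

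**Figure D4:**
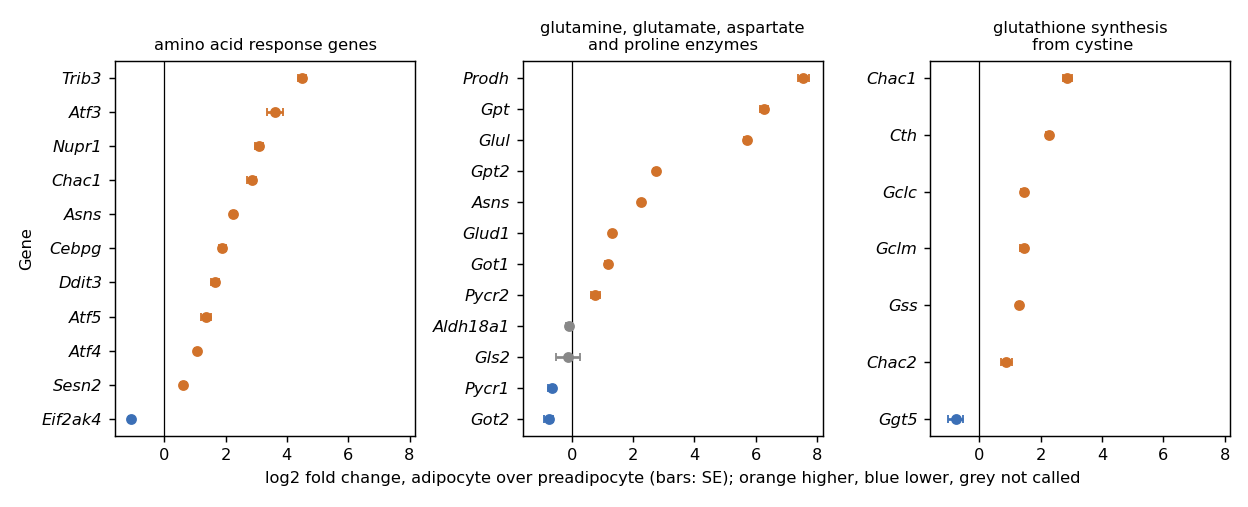
Fitted log2 fold change, adipocyte over preadipocyte, with bars of 1 SE, of tested genes of the amino acid response, of glutamine, glutamate, aspartate and proline enzymes, and of glutathione synthesis. Orange genes were higher, blue lower and grey not past the threshold. In the response list Eif2ak4 is alone to the left of 0, and in the glutamine list Glul lies at 5.70.

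Of the 23 called members, 15 kept direction and call in all 13 alternatives, 8 of them higher (Slc1a3, Slc1a5, Slc36a2, Slc43a1, Slc43a2, Slc43a3, Slc7a5 and Slc7a7) and 7 lower (Slc1a4, Slc36a4, Slc38a1, Slc38a10, Slc38a4, Slc38a7 and Slc7a11). The same count was not made over all called genes, so whether members keep their calls more often than other genes is not known. The 5 other rises (Slc3a2, Slc7a6, Slc7a1, Slc36a1 and Slc38a6) were of at most 0.52 on the log2 scale, and each lost its call or turned with total counts and with limma on TPM.

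**Figure D5:**
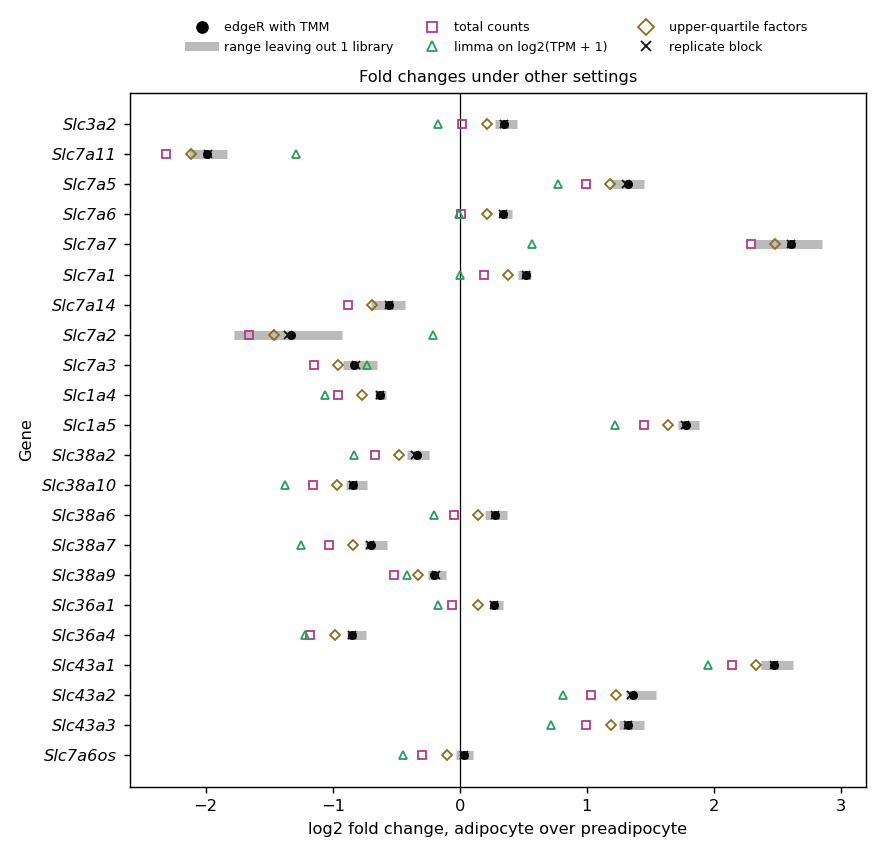
Log2 fold changes, adipocyte over preadipocyte, of 22 tested members under other settings. Black points are edgeR with TMM, grey bars the range when 1 library is left out, and open symbols and crosses the other settings. Total counts (squares) and limma on TPM (triangles) both turn the sign for Slc36a1, Slc38a6 and Slc7a6os, and limma on TPM alone turns it for Slc3a2, Slc7a6 and Slc7a1, the last at -0.0023. Slc1a3, Slc38a1, Slc38a4 and Slc36a2, with main values beyond the axis, are left out.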

How the data were processed

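RNA sequencing of 3 preadipocyte and 3 adipocyte libraries of 3T3-L1 cells was analysed from gene-level tables, 1 for each, whose columns are those of RSEM per the file headers. The tools named are Bowtie, Bowtie2, RSEM and DESeq2 and the builds GRCm38 and mm10, per the submitters' processing notes, which give neither versions nor roles. The deposited expected counts are estimates that divide reads matching several genes, unscaled between libraries. The deposited TPM values are the authors' length-corrected levels, scaled inside each library. The strand setting and the annotation used for counting were not found in these labels.

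Gene identifiers without version were matched to GENCODE M21 (54723 of 54752). No pair of libraries was identical or agreed within sampling noise. The lowest chi-square per degree of freedom was 2.99, between preadipocyte libraries 2 and 3, against 15.5 to 39.7 for other pairs within a group. Each library was counted as 1 replicate, although such a check cannot tell separate cultures from repeated preparations of 1 culture. Expected counts were rounded, filtered with filterByExpr and tested with edgeR 4.0.16 (R 4.3.3), quasi-likelihood F-test, TMM factors (0.88 to 1.13), a model of group alone and Benjamini-Hochberg adjusted p-values over 14726 genes. The script was tested on simulated data. CPM use the TMM-scaled library size. SE is that of the fitted log2 fold change, or SD over 3 libraries where stated. Genes at 0 counts in a group get a bound from a floor of 3 counts over the group, and genes at 1 to 3 counts a ratio with an exact 95% Poisson interval.

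Alternatives were RLE, upper-quartile and no factors, no low-count filter, DESeq2 1.42.0, limma 3.58.1 on log2(TPM + 1) for genes with a mean of at least 0.1 TPM, a replicate block, and leaving out each library. Deviations from group means correlated at 0.66, 0.30 and 0.26 between libraries of equal number. Pairing by number is therefore possible, and values with the replicate block are given where they change a call. The SE and p-values of the main model are from group alone and ignore any pairing. Unequal numbers correlated between -0.57 and 0.45, preadipocyte 2 with adipocyte 3 at 0.45 and preadipocyte 3 with adipocyte 2 at 0.16, so not every library correlated best with its own number. The labels do not say what a number marks.

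Members and lists were chosen with earlier results of these data known. Values in every library are given for members with at least 5 CPM in 1 group. In other lists the 2 largest called changes among genes reaching 10 CPM in either group were named, with the largest call in the opposite direction. Atf3, Asns, Atf4, Glul, Got2, Pycr1, Gclc and Gclm were added after their values were seen. Asns, Chac1 and Sesn2 are each counted in the response list and in another list, so the list counts are not independent. RefSeq promoters (GRCm38.p6) were searched on both strands for TGATGNAA. No set test was run. A gene of the glutamine list is counted but not reported here.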

Additional observations from a re-analysis of the deposited data

How the results depend on the processing

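The counts of called members stayed within 1.5 times the reported 13 higher and 10 lower in the alternatives run, except that total counts gave 8 higher. Leaving out 1 library gave 11 to 13 higher and 7 to 9 lower members. Over all genes tested in those runs, 32.9% to 36.2% were higher and 33.9% to 37.1% lower. Over all genes, 3419 were higher and 8807 lower with limma on TPM, against 5252 and 5575. Limma on TPM gave no value for Slc7a14, which was under its filter. Of 337 values of single members, 299 kept direction and call and 11 turned in sign. With the sign kept, 23 lost a call and 4 gained 1. Calls lost or gained among the 11 turned values are not in those counts. The sign turned with limma on TPM for Slc3a2 (-0.17), Slc7a1 (-0.0023), Slc7a6 (-0.01), Slc36a1 (-0.17), Slc38a6 (-0.20) and Slc7a6os (-0.45), with total counts for Slc36a1 (-0.06), Slc38a6 (-0.05) and Slc7a6os (-0.30), and for Slc7a6os with upper-quartile factors (-0.10) and without preadipocyte library 3 (-0.03 to 0.10 over the 6 libraries left out in turn). Those settings also moved the median of all genes downward. The cause was not tested. The replicate block gave 13 higher and 11 lower members, and among members it changed the call of Slc38a9 only (-0.19). In the main fit 17 members had too few counts to be tested, of which 5 had no count in any library. Whether more depth would bring them in was not tested.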
